A study of Homo sapiens with 20 samples.

Results

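The 38 genes described here are immediate early genes and genes that respond to serum response factor (SRF). They were chosen by name, as the rows carrying those symbols in both deposited tables, out of 26485 gene rows per table. All 38 passed the filter on low values, a mean of at least 0.5 reads per 1000000 reads (RPM), as did 15958 genes in all. The libraries hold RNA from isolated nuclei of HCT116, an established human colorectal carcinoma line with wild-type p53. Every group was electroporated, and all medium held 0.1% DMSO. The Nutlin-3a plus peptide group was electroporated with 10 µM of a bivalent stapled peptide, Peg6, made to keep p53 from binding Mediator, and kept for 3 h with 10 µM Nutlin-3a. The Nutlin-3a plus water group received water in place of peptide. The DMSO plus peptide and DMSO plus water groups were treated alike but without Nutlin-3a. Medium of peptide-treated wells held a further 200 nM peptide. Each group has 5 libraries, 2 from experiment 1 and 3 from experiment 2. Cells that were not electroporated are not analysed here. The labels do not say whether replicates came from separate cultures, so p-values measure the spread between these libraries, which may be technical.

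Immediate early genes are transcribed within minutes of a growth factor or stress signal, without new protein synthesis. The MAP kinase ERK phosphorylates ternary complex factors such as ELK1, which sit beside SRF at promoter elements called CArG boxes. Phosphorylated ELK1 contacts the Mediator subunit MED23, as shown in mouse cells. Mediator links transcription factors to RNA polymerase II, and p53 contacts it through its own activation domain. Most products of the set are transcription factors, and others are brakes: dual-specificity phosphatases remove phosphate from MAP kinases, Sprouty proteins dampen receptor signalling, and ZFP36 proteins promote decay of AU-rich mRNAs. The comparisons therefore ask whether inducible genes that can use Mediator through factors other than p53 were spared by the peptide. For 8 members also known as p53 targets (ATF3, BHLHE40, IER5, KLF4, DUSP1, DUSP4, DUSP5 and ZFP36L1), p53 and other factors are not separated. No growth factor is listed among the treatments, so levels after 3 h are compared and not a timed induction.

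CArG boxes were sought in RefSeq promoter windows (build GRCh38.p14, 250 bases before to 50 bases after a start site). Such windows were listed for 31 members, 45 windows in all, and not for FOSL1, EGR3, IER3, DUSP4, DUSP5, KLF10 or NR4A2. A CArG box was found in 3 member windows, those of EGR1, EGR2 and SRF, and in 1.29% of all 35116 windows. These 3 are shown because they are the only member windows with the SRF motif, and because EGR1 and EGR2 were highest, and SRF lowest, in the same replicate, as given below. The bases before the start site are printed 5′ to 3′ in the direction of transcription, with CArG boxes in capitals.
EGR1, chr5:138465229-138465478, plus strand: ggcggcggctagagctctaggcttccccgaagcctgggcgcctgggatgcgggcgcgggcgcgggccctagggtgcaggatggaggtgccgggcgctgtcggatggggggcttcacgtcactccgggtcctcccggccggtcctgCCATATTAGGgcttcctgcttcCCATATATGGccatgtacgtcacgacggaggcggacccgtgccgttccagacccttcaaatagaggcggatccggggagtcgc
EGR2, chr10:62816367-62816616, minus strand: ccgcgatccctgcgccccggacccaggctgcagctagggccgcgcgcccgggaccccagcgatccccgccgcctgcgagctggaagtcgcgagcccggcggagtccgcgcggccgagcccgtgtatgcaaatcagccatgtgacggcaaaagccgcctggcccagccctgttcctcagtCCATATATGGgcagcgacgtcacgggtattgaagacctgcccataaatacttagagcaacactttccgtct
SRF, chr6:43171019-43171268, plus strand: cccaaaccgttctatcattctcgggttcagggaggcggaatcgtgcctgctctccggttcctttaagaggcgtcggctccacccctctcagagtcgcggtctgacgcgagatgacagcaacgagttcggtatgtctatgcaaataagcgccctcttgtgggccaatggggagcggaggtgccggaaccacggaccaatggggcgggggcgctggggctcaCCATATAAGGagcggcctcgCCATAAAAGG

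EGR1 has boxes that begin 105 and 83 bases before the start, EGR2 one at 71 bases, and SRF a pair at 30 and 10 bases. None overlaps a match to another motif searched. On both strands, the cAMP response element TGACGTCA was found for DUSP1, JUND, MAFF and ZFP36L1 and in 1.85% of all windows. The AP-1 motif TGANTCA was found for FOSL2 and in 7.71% of all windows. The letters TATAAA were found for ATF3, DUSP1, FOS, FOSB, JUNB, SGK1 and SRF, and in 11.5% of all windows. The p53 decamer motif was found in 0 of the 45 member windows and in 6.63% of all windows. For all 3 genes shown, the RefSeq start of the window lies upstream of the start of the deposited row. These matches describe letters in the windows and not binding. Motifs outside the windows were not sought, for FOS or any other member.

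Gene rows summed to 18787172 to 47407746 reads per library in experiment 2, against 36717795 to 63896604 in experiment 1. The share of structural RNA was 0.634% to 3.57% for experiment 2 libraries, against 15.7% to 25.5% for those of experiment 1, so RPM were scaled by trimmed mean of M values (TMM) factors, and all RPM below are scaled. One library stands apart, replicate 2 of Nutlin-3a with water in experiment 1. It correlated with its replicate at 0.955 across genes, while the replicates of the other 3 groups of that experiment correlated at 0.992 to 0.997. Replicates in experiment 2 correlated at only 0.933 to 0.946, so by this measure it stands apart within experiment 1 alone. Its structural RNA share, 25.5%, was the highest of all libraries, and the next highest was 20.4%. Medians of the members and their calls with blocks are given with and without the library that stands apart. Of the colorectal epithelial markers, 7 genes summed to 1848 to 4422 RPM, although the enterocyte gene VIL1 reached at most 0.406 RPM. The 5 leukocyte markers summed to 0.0955 to 6.85 RPM, with PTPRC at most 0.0818 RPM. The 7 fibroblast and endothelial markers summed to 14.8 to 75.4 RPM, mostly COL1A1, with COL1A2 at most 0.0187 RPM.

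Levels of the members differed between experiments and, within experiment 2, between replicate numbers. In these bulk samples, fewer responding cells and less RNA per cell cannot be told apart. Per kilobase of gene span, IER3, an ERK-induced regulator of survival, was the highest member in both experiments, at 536 RPM per kilobase in experiment 2 and 129 in experiment 1. JUND, an AP-1 subunit with steady expression in many cells, was second in both, at 103 RPM per kilobase in experiment 2 and 41.2 in experiment 1. HES1, a Notch-responsive repressor, ranked 3 in experiment 2 and 28 in experiment 1, while FOSB ranked 19 and KLF10 20 in both. FOSL2 was lowest in experiment 2 at 0.762 RPM per kilobase, and EGR2 in experiment 1 at 0.464. Whether exons or the whole span were counted is not given in the sources used here, so these ranks hold only per span. By RPM, FOSL2 (14.9) was above EGR2 (10.7), NR4A3 (11.3) and SPRY2 (9.91) in experiment 2.

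The 36 members whose row covers the same isoform in both tables can be compared between experiments, and EGR2 and TIPARP, counted over different isoforms, cannot. Of the 36, 31 had the higher mean in experiment 2, and 24 (66.7%) were more than 2-fold higher, against 20.7% of 14837 genes. The median ratio of experiment 2 to experiment 1 was 2.56 for the members and 1.1 for all these genes. Every experiment 2 library lay above every experiment 1 library for 14 members (38.9%, background 20.1%) and below for 2, FOSL2 and DUSP5 (5.56%, background 18.2%). Without the TMM factor the median ratios were 3.55 and 1.46, and with median-of-ratios scaling 2.53 and 1.09. Depth, structural RNA share and everything else done separately in the experiments cannot be told apart in this difference.

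HES1 had a mean of 179 RPM (29.9 to 492) in experiment 2 and 5.99 RPM (4.57 to 8.46) in experiment 1, a ratio of 29.9. NR4A2, an orphan nuclear receptor, had a mean of 173 RPM (91.2 to 314) in experiment 2 and 14.2 RPM (11.1 to 19.7) in experiment 1, a ratio of 12.2. For both, the experiments did not overlap. RHOB, which encodes a short-lived small GTPase, ran the other way, with a mean of 15.7 RPM (7.71 to 24.1) in experiment 2 and 31.97 RPM (21.8 to 58.01) in experiment 1. SRF itself had a mean of 40.1 RPM (26.8 to 58.2) in experiment 2 and 48.7 RPM (35.1 to 82.00) in experiment 1. BHLHE40, a stress and circadian repressor, had nearly equal means, 17.04 RPM in experiment 2, against 17.5 RPM in experiment 1.

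**Figure D1:**
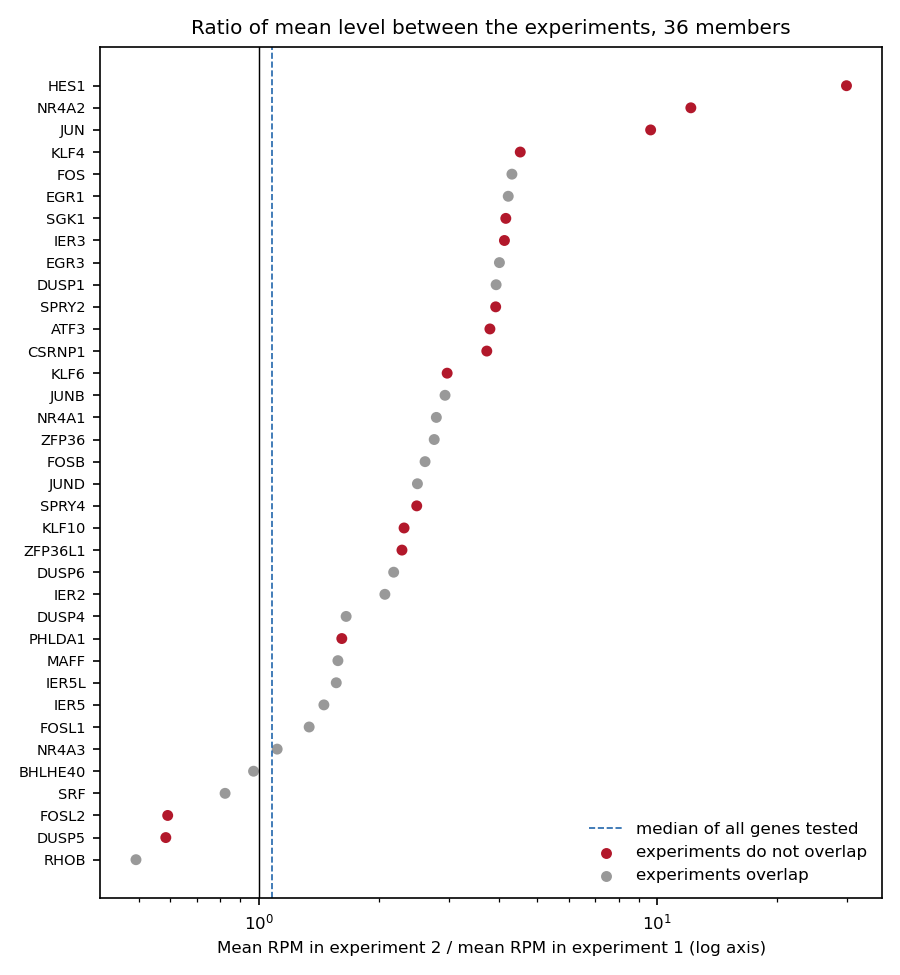
Ratio of the mean level in experiment 2 (12 libraries) to that in experiment 1 (8 libraries), in scaled RPM on a log axis, for the 36 members with the same row in both tables. Members whose libraries do not overlap between the experiments are marked, 14 above 1 and 2 below, and the median over all genes is 1.1.

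Within experiment 2, the members differed more between replicate numbers than between treatments. The range between the 3 replicate means had a median of 1.39 on the log2 scale over the members, and that between the 4 treatment means 0.29. The replicate range was the wider for all 38 members and for 92.5% of all genes. In experiment 1 it was the wider for 7 members (18.4%) and for 14.7% of all genes. There the replicate range spans only 2 means, and the treatment means include the library that stands apart. The shares of the 2 experiments are therefore not comparable. Summed over the 38 in experiment 2, the libraries numbered 1 held 4117 to 4776 RPM, those numbered 2 held 2560 to 2673, and those numbered 3 held 6168 to 6479. The libraries numbered 3 were also the deepest, at 39324843 to 47407746 reads, against 18787172 to 27146864 in the other 8, and the part of depth was not tested.

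The highest mean of experiment 2 was in replicate 3 for 29 members and in replicate 1 for 9. In replicates 3, 1 and 2, HES1 averaged 411, 93.1 and 32.3 RPM. EGR2, a zinc finger factor, averaged 26.8, 4.03 and 1.33 RPM in the same order, and EGR1 187, 43.4 and 40.5 RPM. SRF ran opposite to these factors, at 29.3, 51.1 and 39.96 RPM, as did the nuclear receptor gene NR4A3 at 3.31, 19.3 and 11.2 RPM. Libraries with the same number deviated from their group means together, and they are treated below as pairs.

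FOS, an AP-1 subunit and the classic SRF target (chr14:75278778-75281424, plus strand in hg38), held in replicates 1, 2 and 3 of experiment 2 56.6, 88.5 and 211 RPM with Nutlin-3a and peptide, 44.5, 92.5 and 215 RPM with Nutlin-3a and water, 82.4, 99.004 and 209 RPM with DMSO and peptide, and 91.1, 99.6 and 179.6 RPM with DMSO and water. In replicates 1 and 2 of experiment 1 it held 31.8 and 35.4 RPM with Nutlin-3a and peptide, 18.3 and 48.5 RPM with Nutlin-3a and water, 28.1 and 26.4 RPM with DMSO and peptide, and 17.1 and 21.001 RPM with DMSO and water. The treatments overlapped in experiment 2, while in experiment 1 both DMSO plus peptide libraries were above both DMSO plus water libraries. With 2 libraries against 2, this also held there for other members, among them EGR1, FOSB, KLF4 and ATF3. The share of all genes that separated in this way is not given here.

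EGR1 (chr5:138465492-138468081, plus strand), a zinc finger factor, held in experiment 2 34.1, 34.5 and 174 RPM with Nutlin-3a and peptide, 41.4, 44.6 and 202 RPM with Nutlin-3a and water, 52.3, 38.8 and 173 RPM with DMSO and peptide, and 45.7, 44.3 and 200.3 RPM with DMSO and water. Its experiment 1 values were 21.6 and 27.5 RPM with Nutlin-3a and peptide, 13.6 and 40.2 RPM with Nutlin-3a and water, 18.02 and 19.3 RPM with DMSO and peptide, and 12.9 and 17.9 RPM with DMSO and water. The highest of these came from the library that stands apart, and the treatments overlapped in experiment 2.

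JUN (chr1:58780791-58783070, minus strand), the AP-1 subunit activated by JNK, held in experiment 2 104, 42.9 and 293 RPM with Nutlin-3a and peptide, 137, 57.3 and 364 RPM with Nutlin-3a and water, 106, 42.1 and 300.4 RPM with DMSO and peptide, and 143, 48.8 and 374 RPM with DMSO and water. Its experiment 1 values were 16.3 and 19.5 RPM with Nutlin-3a and peptide, 14.4 and 30.4 RPM with Nutlin-3a and water, 17.1 and 14.3 RPM with DMSO and peptide, and 12.9 and 14.4 RPM with DMSO and water. Every peptide library of experiment 2 was below the water library with its number, although the groups overlapped.

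IER2 (chr19:13150468-13153858, plus strand), a nuclear immediate early protein, held in experiment 2 54.5, 44.5 and 112 RPM with Nutlin-3a and peptide, 54.5, 48.7 and 123 RPM with Nutlin-3a and water, 66.4, 49.2 and 137 RPM with DMSO and peptide, and 72.7, 57.02 and 122 RPM with DMSO and water. In experiment 1 the values were 35.2 and 47.8 RPM with Nutlin-3a and peptide, 28.3 and 55.6 RPM with Nutlin-3a and water, 32.9 and 36.2 RPM with DMSO and peptide, and 32.3 and 34.4 RPM with DMSO and water. Replicate 3 was the highest in all 4 treatments of experiment 2.

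ATF3 (chr1:212615018-212619105, plus strand), a stress-induced factor that is also a p53 target, held in experiment 2 26.1, 34.3 and 43.9 RPM with Nutlin-3a and peptide, 34.1, 40.7 and 50.9 RPM with Nutlin-3a and water, 38.8, 26.5 and 51.8 RPM with DMSO and peptide, and 33.5, 27.1 and 49.7 RPM with DMSO and water. In experiment 1 the values were 9.49 and 9.72 RPM with Nutlin-3a and peptide, 11.1 and 16.7 RPM with Nutlin-3a and water, 8.60 and 9.03 RPM with DMSO and peptide, and 7.70 and 7.85 RPM with DMSO and water. In every pair the Nutlin-3a plus peptide library was below the Nutlin-3a plus water library, as for 2.53% of all genes.

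DUSP1 (chr5:172768090-172770952, minus strand), the nuclear MAP kinase phosphatase, held in experiment 2 14.9, 19.5 and 98.96 RPM with Nutlin-3a and peptide, 15.999, 19.8 and 90.2 RPM with Nutlin-3a and water, 16.8, 18.3 and 99.996 RPM with DMSO and peptide, and 21.3, 18.6 and 84.8 RPM with DMSO and water. In experiment 1 it ran at 12.2 and 12.3 RPM with Nutlin-3a and peptide, 9.04 and 14.9 RPM with Nutlin-3a and water, 10.6 and 10.6 RPM with DMSO and peptide, and 8.26 and 9.82 RPM with DMSO and water. Its replicate 3 libraries stood far above all others, whatever the treatment.

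SRF (chr6:43171295-43179190, plus strand) held in experiment 2 42.8, 35.7 and 26.8 RPM with Nutlin-3a and peptide, 48.6, 36.99 and 28.9 RPM with Nutlin-3a and water, 54.99, 44.3 and 28.8 RPM with DMSO and peptide, and 58.2, 42.8 and 32.6 RPM with DMSO and water. In experiment 1 it ran at 45.2 and 55.6 RPM with Nutlin-3a and peptide, 35.1 and 81.997 RPM with Nutlin-3a and water, 43.9 and 47.4 RPM with DMSO and peptide, and 38.2 and 42.4 RPM with DMSO and water. Its highest value of all was in the library that stands apart, and its replicate 3 was the lowest in every treatment of experiment 2.

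BHLHE40 (chr3:4979412-4983692, plus strand), also known as a p53 target, held in experiment 2 11.4, 16.5 and 22.4 RPM with Nutlin-3a and peptide, 14.6, 19.5 and 28.1 RPM with Nutlin-3a and water, 11.8, 11.8 and 22.6 RPM with DMSO and peptide, and 12.6, 12.2 and 20.8 RPM with DMSO and water. In experiment 1 it ran at 16.7 and 18.3 RPM with Nutlin-3a and peptide, 14.8 and 30.5 RPM with Nutlin-3a and water, 16.7 and 15.8 RPM with DMSO and peptide, and 13.2 and 14.5 RPM with DMSO and water. In every pair the Nutlin-3a plus water library was above the DMSO plus water library, as for 2.87% of all genes. An antisense row, BHLHE40-AS1, overlaps it in the experiment 1 table at a mean of 0.78 RPM, and the strand used in counting is not given in the sources used here.

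**Figure D2:**
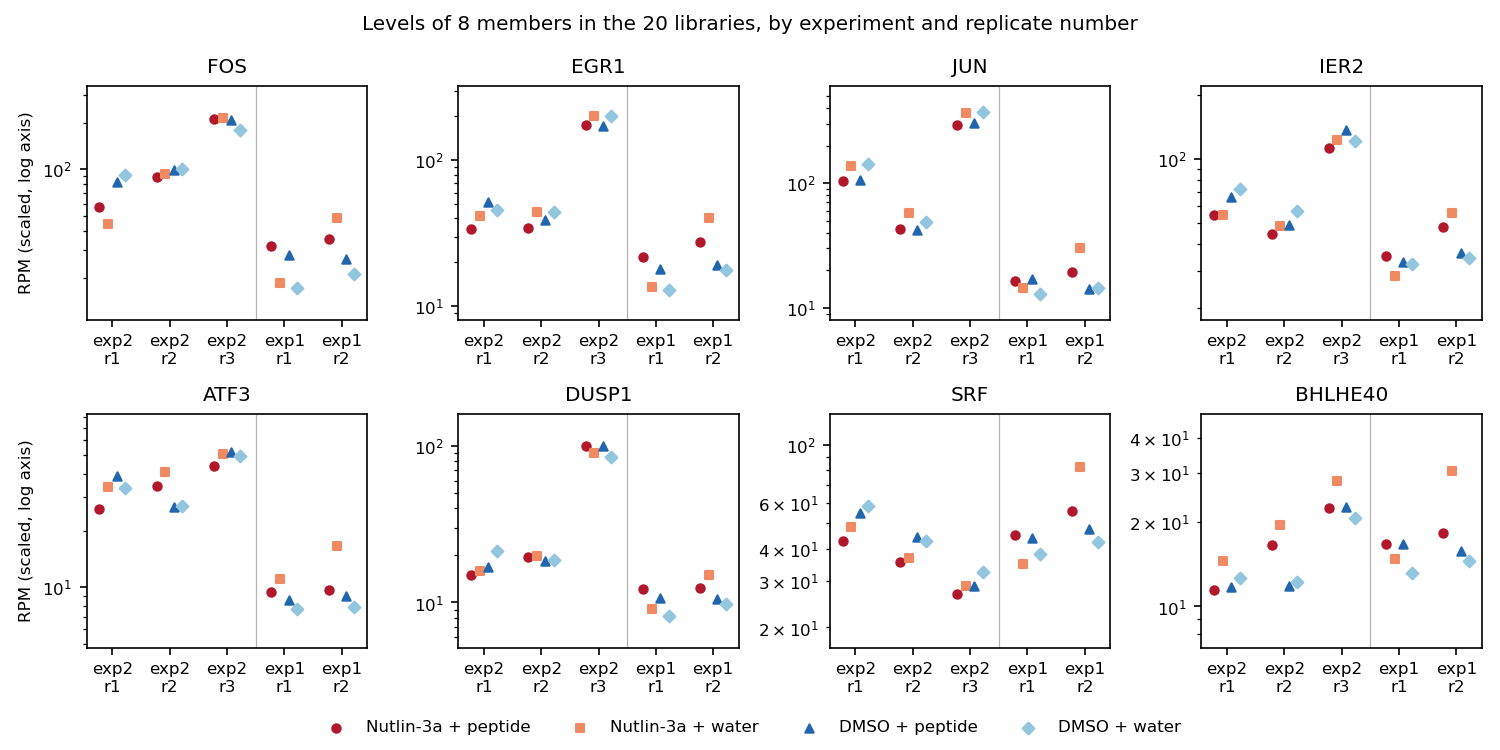
Level of 8 members in each of the 20 libraries, in scaled RPM on a log axis, by experiment and replicate number; each point is a library and colour gives the treatment. In experiment 2 the 4 treatments move together with replicate number, DUSP1 upward in replicate 3 and SRF downward.

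Under Nutlin-3a, when p53 is stabilised, no member passed the test for peptide against water. In limma with a term for experiment, 0 of 38 members and 0% of 15958 genes passed an adjusted p of 0.05, and 0 members and 33 genes higher and 44 lower had an unadjusted p under 0.05. In limma-voom on the recovered reads 0 members were called in this comparison and in the other 5 described below, with or without blocks. With the same-numbered libraries as blocks, 0 members and 0% of genes passed. The median log2 change of the members, peptide over water on the log2(RPM + 0.5) scale, was -0.07, with 25 of 38 below 0, against 0.04 over all genes. Without the library that stands apart it was 0.07, with 27 of 38 above 0, and leaving out a single library of experiment 2 also put it above 0, for replicate 3 of Nutlin-3a plus water (0.06) and for replicate 2 of Nutlin-3a plus peptide (0.11). Its direction was therefore not stable. These medians, and those below with a library left out, come from fits without blocks. There the same-numbered partners of the left-out library stayed in, so differences between replicate numbers enter these medians.

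By role, the AP-1 genes and partners had a median of -0.17, with 8 of 9 below 0. The zinc finger and nuclear receptor factors had a median of -0.11, with 6 of 9 below 0, and the other nuclear factors -0.11, with 6 of 7 below 0. The feedback inhibitors had a median of 0.04 with 3 of 8 below 0, and the other effectors 0.10 with 2 of 5 below 0. Leaving out the library that stands apart, the AP-1 genes and partners had a median of -0.02 with 5 of 9 below 0, the zinc finger and nuclear receptor factors 0.09 with 4 of 9 below 0, and the other nuclear factors 0.10 with 1 of 7 below 0. The feedback inhibitors then had a median of 0.06 with 0 of 8 below 0, and the other effectors 0.05 with 1 of 5 below 0. No group held a member past the threshold.

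EGR3, a zinc finger factor induced with EGR1, had the lowest change. In replicates 1 and 2 of experiment 1 and then 1, 2 and 3 of experiment 2 it held 5.66, 5.09, 18.9, 4.06 and 30.8 RPM with Nutlin-3a and peptide, against 5.03, 10.4, 23.98, 6.37 and 37.5 RPM with Nutlin-3a and water. It was lower with peptide in 4 of 5 pairs, and its log2 change was -0.40 (SE 0.637; with blocks SE 0.171 and adjusted p = 0.602, limma), and -0.22 (SE 0.698) without the library that stands apart. No member was higher with peptide in 5 of 5 pairs (background 4.86%). ATF3 alone, 1 of 38 members, was lower in 5 of 5, near the background share of 2.53%. Its change was -0.36 (SE 0.209; with blocks SE 0.134 and adjusted p = 0.602, limma), and -0.23 (SE 0.207) without that library. In the 4 pairs without it, ATF3 was again lower in every pair, which follows from its 5 of 5. No other member was lower in every pair (background 6.17%), and IER5L alone was higher (background 9.81%). MAFF, a small MAF partner of AP-1, held 15.2, 18.6, 23.7, 10.5 and 38.99 RPM with Nutlin-3a and peptide, against 14.97, 28.4, 27.6, 14.8 and 50.7 RPM with Nutlin-3a and water. Its change was -0.33 (SE 0.402; with blocks SE 0.122 and adjusted p = 0.602, limma), lower in 4 of 5 pairs, and -0.19 (SE 0.436) without that library.

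DUSP4, a nuclear phosphatase of MAP kinases, had the highest change with all libraries. It held 142, 148, 330.1, 116 and 188 RPM with Nutlin-3a and peptide, against 100.0, 124, 353, 106 and 168 RPM with Nutlin-3a and water, a change of 0.19 (SE 0.342; with blocks SE 0.0791 and adjusted p = 0.602, limma), higher in 4 of 5 pairs. PHLDA1, an immediate early pleckstrin homology protein, held 257, 249.9, 455, 311 and 316 RPM with Nutlin-3a and peptide, against 185, 229.7, 492, 292 and 271 RPM with Nutlin-3a and water. Its change was 0.16 (SE 0.179), higher in 4 of 5 pairs. HES1 held 6.98, 7.57, 79.1, 29.9 and 397 RPM with Nutlin-3a and peptide, against 4.82, 8.46, 66.7, 31.4 and 339 RPM with Nutlin-3a and water, a change of 0.15 (SE 0.781). For all 3 genes the groups overlapped over both experiments together, while within experiment 1 both Nutlin-3a plus peptide libraries were above both Nutlin-3a plus water libraries for DUSP4 and PHLDA1. With 2 libraries against 2, the same held there for other members, among them KLF6, KLF10 and DUSP6, and ATF3 ran the other way. The share of all genes that separated in this way is not given here. The changes of FOS, EGR1 and SRF were 0.12 (SE 0.416), -0.15 (SE 0.565) and -0.11 (SE 0.242). With the library that stands apart left out they were 0.36 (SE 0.43), 0.09 (SE 0.608) and 0.10 (SE 0.221), and FOS then had the highest change of the members, with HES1 at 0.31 (SE 0.865) and DUSP4 at 0.21 (SE 0.378).

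The intervals give the size of change these data allow. With the experiment term, 95% intervals lay within 1.5-fold either way for 6 of 38 members (15.8%) and 49.2% of all genes. With blocks they did for 34 of 38 members (89.5%) and 93.8% of all genes, and the exceptions were JUN, EGR3, ATF3 and MAFF, all on the low side. The median SE of the members was 0.341 with the experiment term and 0.128 with blocks. With blocks, DUSP4 was higher at an unadjusted p under 0.05 (background 4.65%), and ATF3, BHLHE40, EGR3, JUN and MAFF were lower (background 3.5%). Once the library that stands apart was left out, the split was the other way, with JUNB, DUSP4, HES1 and PHLDA1 higher (background 6.84%) and MAFF lower (background 4.27%). None of these members passed the correction in limma, where with all libraries the smallest adjusted p of a member was 0.602.

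The p53 target genes CDKN1A, MDM2, BTG2, FAS, DDB2, XPC and PHLDA3 in the same fits had a median of -0.50, with 7 of 7 below 0, and none passed the threshold. CDKN1A, the p21 cell cycle inhibitor, had a change of -0.73 (95% interval with blocks -1.21 to -0.25, adjusted p = 0.602, limma). In experiment 2 the median was -0.07 for these 7 genes and -0.10 for the 38 members. In experiment 1 it was -1.16 for the 7 and -0.07 for the 38. Without the library that stands apart, the median of the 7 over both experiments was -0.48, again with 7 of 7 below 0. The difference between the lists was not tested.

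**Figure D3:**
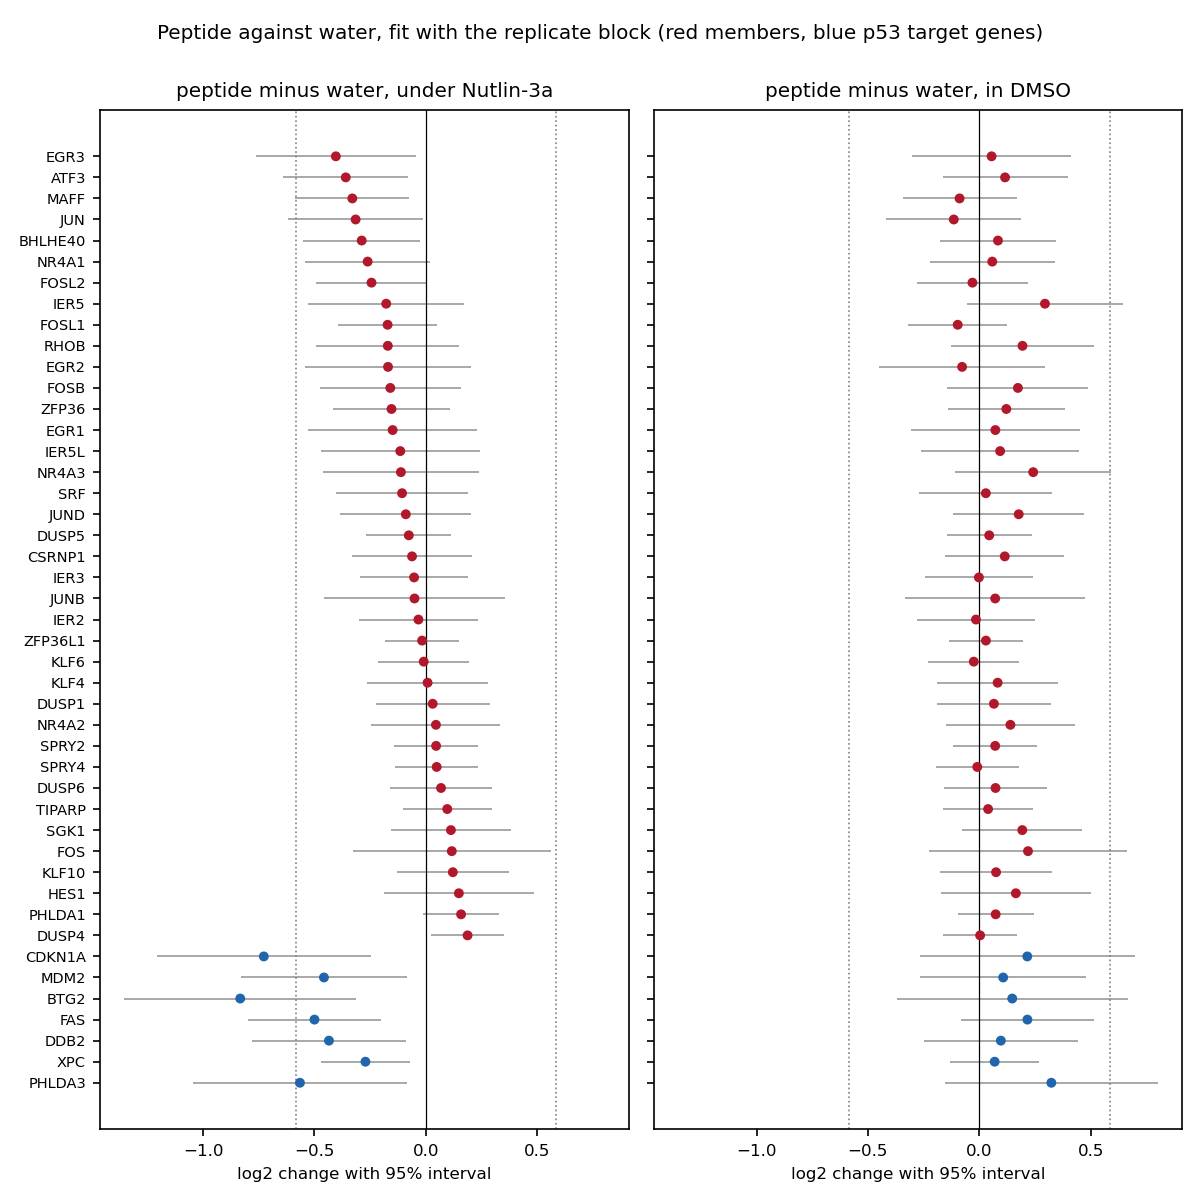
Log2 change, peptide over water, with 95% intervals from limma with replicate blocks, under Nutlin-3a (left) and in DMSO (right), for the 38 members (red) and 7 p53 target genes (blue); dotted lines mark 1.5-fold. Under Nutlin-3a the members centre near -0.07 and all 7 p53 target genes lie below 0, while in DMSO both sets centre above 0.

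In DMSO without Nutlin-3a, no member passed for peptide against water either. With the experiment term 0 of 38 members and 0% of genes passed in limma, and with blocks 0 members and 0% of genes. There 0 members had an unadjusted p under 0.05 with the experiment term, against 9 genes higher and 7 lower. The median was 0.07, with 29 of 38 above 0, against 0.02 over all genes, and it was below 0 without replicate 2 of DMSO with water (-0.04) or replicate 3 of DMSO with peptide (-0.07), both in experiment 2. JUND, IER5, ZFP36, HES1 and RHOB were higher with peptide in 5 of 5 pairs (background 5.86%) and no member lower (background 3.28%). With blocks, intervals lay within 1.5-fold for 35 of 38 members (92.1%) and 97.8% of all genes, the exceptions being FOS, IER5 and NR4A3.

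IER5, an immediate early activator of heat shock factor, had the highest change in DMSO. It held 20.6, 21.4, 58.99, 31.998 and 33.6 RPM with DMSO and peptide, against 17.3, 18.4, 44.3, 23.4 and 30.01 RPM with DMSO and water, a change of 0.29 (SE 0.277; with blocks SE 0.168 and adjusted p = 1, limma). NR4A3 held 8.62, 9.25, 25.4, 12.1 and 3.83 RPM with DMSO and peptide, against 6.34, 9.31, 18.98, 10.8 and 3.19 RPM with DMSO and water, a change of 0.24 (SE 0.544), higher in 4 of 5 pairs. The groups overlapped for both genes. The change of FOS was 0.22 (SE 0.416). At the other end, JUN had a change of -0.11 (SE 0.603) and MAFF -0.09 (SE 0.402). FOSL1, the FOS-related AP-1 subunit, held 190.4, 211, 360.4, 134 and 328 RPM with DMSO and peptide, against 187, 209, 394, 152 and 381 RPM with DMSO and water, a change of -0.10 (SE 0.34).

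Averaged over Nutlin-3a and DMSO, peptide against water gave 0 of 38 members and 0% of genes with the experiment term in limma, and 0 members and 0% with blocks. At an unadjusted p under 0.05 with the experiment term there were 0 members, 22 genes higher and 15 lower. With blocks JUN and MAFF were lower at an unadjusted p under 0.05 (background 2.88%), JUN with a change of -0.21 (SE 0.426; with blocks SE 0.102 and adjusted p = 0.684, limma). Without the library that stands apart, FOS, JUNB, JUND, IER5, IER5L, KLF4, HES1 and PHLDA1 were higher (background 7.25%) and MAFF lower (background 3.52%), while JUN, with a change of -0.14, had an unadjusted p of 0.0981; the smallest adjusted p of a member was 0.457 in limma. In experiment 2 fitted alone with blocks, a setting added after the data were seen, JUN passed the threshold, 1 of 38 members, with 8 of 15731 genes called (background 0.0509%). There JUN fell by 0.34 on the log2 scale (SE 0.0539, 95% interval -0.46 to -0.23, adjusted p = 0.0166, limma), and was lower with peptide in 6 of 6 pairs. Those pairs are the libraries of the same fit, from 3 replicate numbers, so their sign is no further support. The share of all genes lower in all of them is not given here. In experiment 1 fitted alone the change of JUN was -0.07 (SE 0.211, adjusted p = 0.925, limma), lower in 2 of 4 pairs. The change in experiment 2 minus that in experiment 1 was -0.33 (SE 0.951, adjusted p = 1, limma with 8 group means; with blocks SE 0.176 and adjusted p = 0.627, where 0.0125% of genes passed), so a difference between experiments was not shown. Experiment 2 fitted alone without blocks gave 0 members. For peptide against water under Nutlin-3a, experiment 2 with blocks gave 0 members and 0.0127% of genes. At an unadjusted p under 0.05, JUN, EGR1, EGR2, EGR3, KLF6, MAFF, BHLHE40 and RHOB were lower there (background 3.32%) and 0 members higher. In the averaged comparison, FOSL1, JUN, EGR1, EGR2, EGR3, KLF6 and MAFF were lower (background 2.61%) and IER5 and HES1 higher (background 2.71%).

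**Figure D4:**
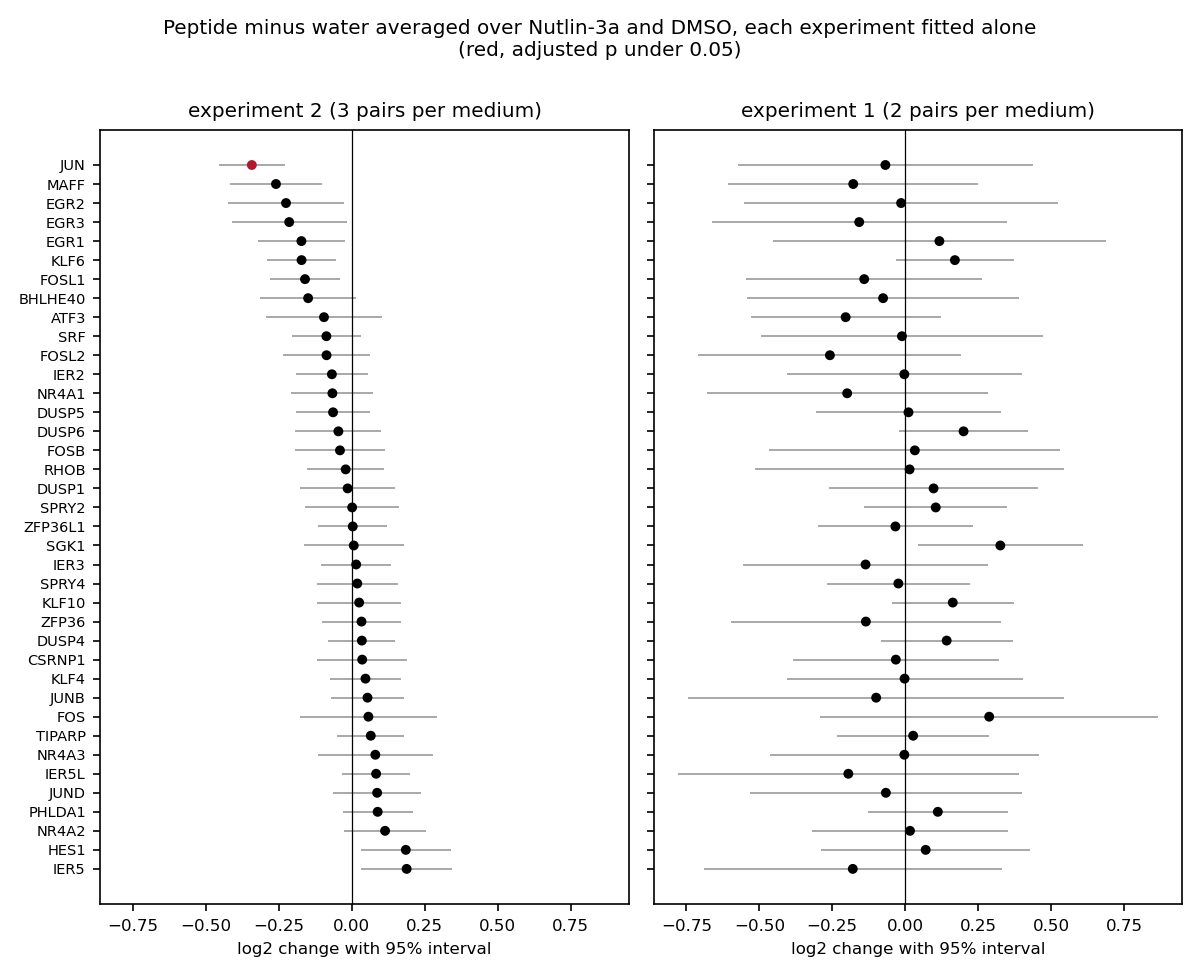
Log2 change, peptide over water averaged over Nutlin-3a and DMSO, with 95% intervals, each experiment fitted alone with replicate blocks in limma; experiment 2 is on the left and experiment 1 on the right. JUN, in red, is the only member past an adjusted p of 0.05 (0.0166, experiment 2), and its interval in experiment 1 spans 0.

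Nutlin-3a releases p53 from MDM2. In water-treated cells, Nutlin-3a against DMSO gave 0 of 38 members and 0% of genes with the experiment term in limma, and 0 members and 0% with blocks. Here 0 members had an unadjusted p under 0.05 with the experiment term, against 67 genes higher and 33 lower. The DMSO plus water and Nutlin-3a plus water libraries also serve in the comparisons above. The median of the members was 0.12, with 28 of 38 above 0, against -0.03 over all genes. Without the library that stands apart it was -0.01, with 19 of 38 above 0, and leaving out the experiment 2 replicate 2 of DMSO plus water made it -0.04. The pair that holds that library had a median of 0.84, and the other 4 pairs -0.12 to 0.04. The 7 p53 target genes had a median of 0.95, all above 0, and with blocks their smallest adjusted p in limma was 0.0719. Without that library their median was 0.91, and with blocks FAS, a death receptor gene, passed.

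IER5, ATF3, BHLHE40 and RHOB were higher with Nutlin-3a in 5 of 5 pairs (background 2.87%), and in the 4 pairs without the library that stands apart (background 10.6%). All but RHOB are also known as p53 targets. IER5 held 23.7, 56.3, 56.2, 30.4 and 30.8 RPM with Nutlin-3a and water, against 17.3, 18.4, 44.3, 23.4 and 30.01 RPM with DMSO and water. Its change was 0.56 (SE 0.277; with blocks SE 0.168 and adjusted p = 0.582, limma), and 0.30 (SE 0.244) without that library. The change of BHLHE40 was 0.50 (SE 0.243; with blocks SE 0.125 and adjusted p = 0.319, limma), and 0.35 (SE 0.245) without it. That of ATF3 was 0.44 (SE 0.209; with blocks SE 0.134 and adjusted p = 0.582, limma), and 0.31 (SE 0.207) without it. The 8 members known also as p53 targets had a median of 0.14, with 6 above 0, and 0.01 with 4 above 0 without that library. With blocks ATF3, BHLHE40, FOSB, FOSL2, IER5 and JUND were higher at an unadjusted p under 0.05 (background 3.12%). Without that library ATF3, BHLHE40, IER5 and SGK1 were higher (background 6.75%), and JUNB and SPRY4 lower (background 6.79%).

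DUSP6, KLF10 and SPRY2 were lower with Nutlin-3a in 5 of 5 pairs (background 4.51%). In the 4 pairs without the library that stands apart, these stayed lower, which follows from the 5 of 5. JUNB, SRF and SPRY4 joined them there (background 12.1%). KLF10, a zinc finger repressor induced by TGF-beta, held 30.2, 28.1, 82.98, 51.1 and 84.3 RPM with Nutlin-3a and water, against 35.01, 34.2, 98.9, 56.5 and 95.5 RPM with DMSO and water. The groups overlapped, and its change was -0.21 (SE 0.236). SPRY4, a Sprouty inhibitor of receptor signalling, held 40.4, 53.1, 82.9, 78.5 and 158 RPM with Nutlin-3a and water, against 44.9, 50.4, 107, 96.4 and 179.9 RPM with DMSO and water, a change of -0.18 (SE 0.255). DUSP6, the cytoplasmic ERK phosphatase, held 41.3, 45.2, 92.2, 46.97 and 163 RPM with Nutlin-3a and water, against 46.9, 47.6, 121, 53.4 and 164 RPM with DMSO and water, a change of -0.17 (SE 0.412).

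**Figure D5:**
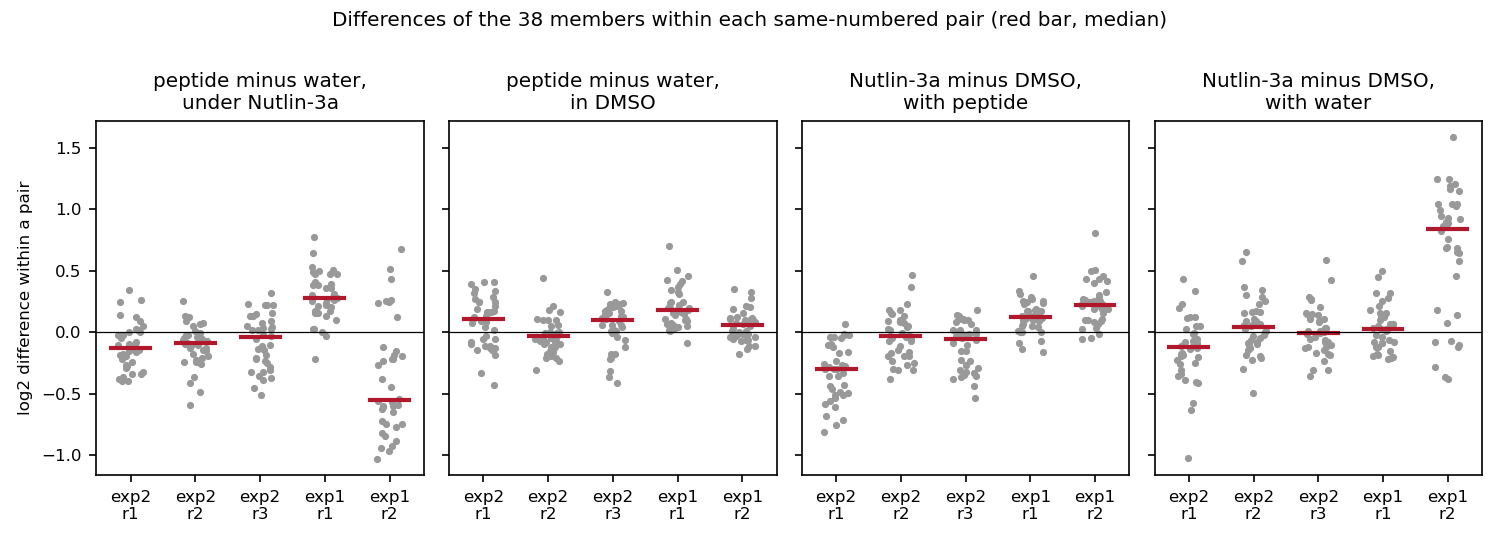
Log2 difference of each of the 38 members within each same-numbered pair of libraries, for 4 comparisons; bars are medians. Replicate 2 of experiment 1 stands apart where it holds the Nutlin-3a plus water library, at a median of -0.55 for peptide over water under Nutlin-3a and 0.84 for Nutlin-3a over DMSO in water-treated cells, while the other medians lie between -0.30 and 0.28.

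With peptide present, Nutlin-3a against DMSO gave 0 of 38 members and 0% of genes with the experiment term in limma, and 0 members and 0% with blocks. In this comparison 0 members had an unadjusted p under 0.05 with the experiment term, against 19 genes higher and 7 lower. The median was -0.02, with 22 of 38 below 0, against -0.01 over all genes, and it was 0.16 without replicate 2 of Nutlin-3a with peptide and 0.12 without replicate 3 of DMSO with peptide, both in experiment 2. No member was higher in 5 of 5 pairs (background 1.62%) or lower (background 3.16%). With blocks the intervals of all 38 lay within 1.5-fold, as did those of 97.3% of all genes. EGR3 held 5.66, 5.09, 18.9, 4.06 and 30.8 RPM with Nutlin-3a and peptide, against 5.46, 4.74, 32.2, 4.97 and 36.04 RPM with DMSO and peptide, a change of -0.22 (SE 0.637). BHLHE40 had the highest change, 0.12 (SE 0.243), then PHLDA1 with 0.12 (SE 0.179) and DUSP4 with 0.12 (SE 0.342). DUSP6 and KLF10 had changes of -0.17 (SE 0.412) and -0.17 (SE 0.236). By experiment, in experiment 2 30 of 38 members were below 0 with a median of -0.155, and in experiment 1, 35 of 38 were above 0 with a median of 0.17. In experiment 2 alone with blocks, 15 members were lower at an unadjusted p under 0.05 (background 8.93%) and 0 higher, and none passed the correction. HES1, for one, was higher with Nutlin-3a in both pairs of experiment 1 and lower in all 3 of experiment 2. The difference between experiments, tested with blocks as a setting added after the data were seen, gave 0 members and 0.0376% of genes in limma, with a smallest adjusted p of a member of 0.166. At an unadjusted p under 0.05 it was below 0 for 11 members and 6.4% of genes, and above 0 for 0 members and 6.48% of genes.

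The interaction compares the change with peptide under Nutlin-3a with that in DMSO. It gave 0 of 38 members and 0% of genes with the experiment term in limma, and 0 members and 0% with blocks. The median was -0.11, with 32 of 38 below 0, against 0.02 over all genes. Without the library that stands apart it was -0.02, with 20 below 0. Other single libraries moved it further, to -0.34 without replicate 3 of DMSO with water and 0.066 without replicate 2 of Nutlin-3a with peptide, both in experiment 2. With the experiment term, 0 members, 10 genes higher and 16 lower had an unadjusted p under 0.05. With blocks ATF3 and BHLHE40 were lower at an unadjusted p under 0.05 (background 0.927%), ATF3 with a change of -0.48 (95% interval -0.87 to -0.08) and BHLHE40 with one of -0.37 (SE 0.177). With the library that stands apart left out, ATF3 alone was lower (background 2.71%), with a change of -0.35, and BHLHE40, at -0.25, had an unadjusted p of 0.094.

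Other genes of the pathway were tested in the same fits. Of 26 upstream signalling genes, among them the receptor EGFR, the kinase MAPK3, the SRF partners ELK1 and MKL1, and MED23, 0 passed in any of the 4 comparisons of treatments. Their median was 0.05 for peptide over water under Nutlin-3a (0.0046 without the library that stands apart) and -0.06 (-0.01 without it) for Nutlin-3a over DMSO in water-treated cells. Of 7 EGFR ligands and secreted products (HBEGF, AREG, EREG, TGFA, LIF, CXCL8 and VGF), 0 passed. Their median for peptide under Nutlin-3a was -0.14, with 6 of 7 below 0, and for Nutlin-3a in water-treated cells 0.10, with 7 of 7 above 0. Of 14 cytoskeletal SRF targets such as ACTB, VCL and FLNA, 13 passed the filter on low values, all but CNN1, and 0 passed the test, with a median of -0.03 for peptide under Nutlin-3a, and 0.12 without the library that stands apart.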

How the data were processed

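Nuclear RNA of 20 HCT116 libraries was measured. Per the submitters' processing notes the authors used HISAT2, bedtools, limma and hg38, given without version or role. Whether counting used strand, exons or the whole gene span is not given in the sources used here. Each deposited value is a score that the authors made from RPM (reads per 1000000 reads) and a divisor set by the row's start and stop, which is no length correction. Removing the divisor gave RPM, and whole reads for all values (tolerance 0.001). The plan had assumed plain RPM. RPM were scaled by TMM factors and tested as log2(RPM + 0.5) with limma 3.58.1 (R 4.3.3, trend), over the 15958 genes averaging 0.5 RPM or more, with terms for treatment and experiment and Benjamini-Hochberg adjustment. The alternative fit took the 5 experiment and replicate numbers as blocks. Same-numbered libraries deviated together (correlations of 0.877 to 0.94 over 18 pairs in experiment 2 and 0.286 to 0.586 over 12 pairs in experiment 1), which comes from the values, since no label states the pairing. In experiment 1 a group has 2 libraries, whose deviations mirror each other. Replicates 1 and 2 therefore give the same correlations, and the 12 pairs are not separate values. The members and lists were chosen with earlier results of these data known. Named in full were 8 chosen members and, per comparison, the 3 members with the smallest and the 3 with the largest change among those with a mean of at least 5 RPM. Other scalings, pseudocounts, filters, tests, library weights, each experiment alone and each library left out were tried. The fits were tested on simulated data.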

Additional observations from a re-analysis of the deposited data

How the results depend on the processing

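Under the replicate block, 0 members were called in every comparison, so the block changed no call. Each block holds every treatment, so the block could change the SE and the calls but not the estimates. Every median therefore kept its value by design, for example -0.07 for peptide against water under Nutlin-3a. Only library weights and experiment 2 alone with the block called any member. Library weights called 4 members for peptide under Nutlin-3a, 12 for Nutlin-3a without peptide and 3 for the averaged peptide comparison, with a median of 0.27 for peptide under Nutlin-3a. The share of all genes called with these weights is not given here, so the counts do not set the members apart from other genes. That fit gave a weight of 474 to replicate 1 and 0.105 to replicate 2 of Nutlin-3a with water in experiment 1. It reversed DUSP5 (0.28) and SRF (0.38) for peptide under Nutlin-3a, and DUSP5 (-0.16), SRF (-0.25), PHLDA1 (-0.15) and TIPARP (0.21) for Nutlin-3a without peptide. With the block added, weights called 0 members. Experiment 2 alone with the block called 1 member, JUN, for the averaged peptide comparison. In experiment 1 alone the median for Nutlin-3a with peptide was 0.18, with and without the block. Members lower in every pair for peptide under Nutlin-3a numbered 4 without the TMM factor, 2 with median-of-ratios scaling and 2 with structural RNA rows left out, against 1, and that last setting left 1, against 3, lower in every pair for Nutlin-3a without peptide. Shares of all genes with one sign in these settings are not given here, and the cause of the shifts was not tested.

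Leaving out each library in turn, in fits with the experiment term and no blocks, called 0 members. It moved the median between -0.25 and 0.11 for peptide under Nutlin-3a, -0.066 and 0.27 for peptide in DMSO, -0.036 and 0.34 for Nutlin-3a without peptide, -0.22 and 0.16 for Nutlin-3a with peptide, -0.34 and 0.066 for the interaction, and -0.077 and 0.092 for the averaged peptide comparison. The ends of these ranges came from experiment 2 libraries. Same-numbered partners of a left-out library stayed in these fits. Differences between replicate numbers therefore enter the ranges and the changes of sign below, and their part was not tested. Members of one sign in every remaining pair ranged from 1 to 13 lower for peptide under Nutlin-3a, from 5 to 12 higher for peptide in DMSO, and from 4 to 12 higher and 3 to 6 lower for Nutlin-3a without peptide. The background rises with fewer pairs, for example from 2.53% to 6.17% lower for peptide under Nutlin-3a without the library that stands apart. Shares of all genes with the other libraries left out are not given here, so these counts do not set the members apart. Changes of sign were 14 of 1520 under scaling, pseudocount, filter, structural row, voom and block settings, the largest of size 0.06, and 352 of 3040 under leaving out a library, up to 0.40. The filter settings and the block without voom could not change a member's estimate, so their part of the 1520 was fixed in advance. The median SE of the members was 0.341 with the experiment term and 0.128 with blocks, at 18787172 reads or more per library, and the part of depth was not tested.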

Other observations

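The 7 genes called together with JUN for peptide against water in experiment 2 alone with replicate blocks are no members and were named after their values were seen. They are CYR61, CTGF, AMOTL2, EPHA2, KRTAP9-7, KRTAP2-3 and ANP32A-IT1. CYR61 and CTGF are secreted matricellular genes that serum induces and that SRF and YAP are known to regulate. CYR61 had a log2 change, averaged over Nutlin-3a and DMSO, of -0.63 (SE 0.0881, adjusted p = 0.00718, limma) in experiment 2 and 0.07 (SE 0.141, adjusted p = 0.883, limma) in experiment 1. CTGF had a change of -0.63 (SE 0.0808, adjusted p = 0.00347, limma) in experiment 2 and -0.07 (SE 0.167, adjusted p = 0.905, limma) in experiment 1. AMOTL2, an angiomotin gene also known as a YAP target, had a change of -0.46 (SE 0.0701, adjusted p = 0.0166, limma) in experiment 2 and 0.05 (SE 0.123, adjusted p = 0.91, limma) in experiment 1. EPHA2, an ephrin receptor gene induced by ERK signalling, had a change of -0.36 (SE 0.0612, adjusted p = 0.037, limma) in experiment 2 and -0.20 (SE 0.144, adjusted p = 0.81, limma) in experiment 1. The keratin-associated protein genes KRTAP9-7 and KRTAP2-3 had changes of -0.57 (SE 0.0722, adjusted p = 0.00347, limma) and -0.55 (SE 0.0853, adjusted p = 0.0166, limma) in experiment 2, and -0.15 and 0.05 in experiment 1, where their adjusted p was 0.81 and 0.916. ANP32A-IT1, a transcript within an intron of ANP32A, rose by 1.46 (SE 0.25, adjusted p = 0.037, limma) in experiment 2 and had a change of -0.12 (SE 0.107, adjusted p = 0.811, limma) in experiment 1. The other 6 genes and JUN fell in experiment 2 and did not pass the threshold in experiment 1. The difference between the experiments, tested in limma with blocks, passed for none of the 7, with adjusted p between 0.292 and 0.633.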
